A study of Drosophila melanogaster with 4 samples.

Results

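Broad domains of trimethylation of lysine 79 of histone H3 (H3K79me3) in nuclei from adult *Drosophila melanogaster* heads are described here. A domain is a cluster, meaning 1 region of significant enrichment in the list deposited for the replicate set (the combined list), that is wider than 20 kb and lies on X, 2L, 2R, 3L or 3R. The members were chosen by the measured width alone, and they are 300 of the 6833 clusters of the combined list on these 5 large arms (4.39%), and of 6943 clusters in all. None of the 110 clusters on chromosome 4 or on heterochromatic and unplaced sequence reached this width, the widest there being 10735 bases. The study holds 2 ChIP libraries made with an H3K79me3 antibody (Abcam, lot 1) and 2 libraries of input chromatin, 1 input serving as background for each ChIP library, per the labels. All were made from wild-type flies of the strain Oregon-R (Oregon-R-modENCODE), labelled as mixed adults, which were raised in population cages and whose heads were collected with sieves. The heads of many flies were thus pooled, with all the cell types of a head. The labels give neither the sexes nor whether the libraries came from separate collections, so the spread between replicates may be technical.

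H3K79 methylation is set by Dot1 (grappa in flies), a methyltransferase without the SET domain that most other lysine methyltransferases of histones carry. It acts within nucleosomes and its marks are commonly found along the bodies of transcribed genes, from near the start into the transcribed sequence. A marked region therefore often follows a transcribed unit or a row of them, and a wide region can hold 1 long gene or several neighbours. Which genes lie in the domains was not analysed here, since the cluster positions are those of FlyBase release 5 and the genes to hand were placed on release 6. For the same reason no sequence is printed.

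The domains made up a small share of the clusters and a large share of the marked sequence. The 300 domains held 9.74 Mb, which was 23.8% of the bases of all combined clusters on the large arms and 8.18% of the arms themselves. Widths had a median of 27521.5 bases and an interquartile range of 22911.5 to 36196.5 bases. Numbers fell off steeply above the limit, as 117 domains were wider than 30 kb, 59 wider than 40 kb, 29 wider than 50 kb and 3 wider than 100 kb. The limit did not fall at a break in the widths. Just outside it were clusters of 19967, 19999 and 20000 bases, on 3L, X and 2R, and just inside it clusters of 20139, 20191 and 20210 bases, the first on X and the others on 2L. The plot of widths by arm shows this crowding above the limit on every arm.

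**Figure D1:**
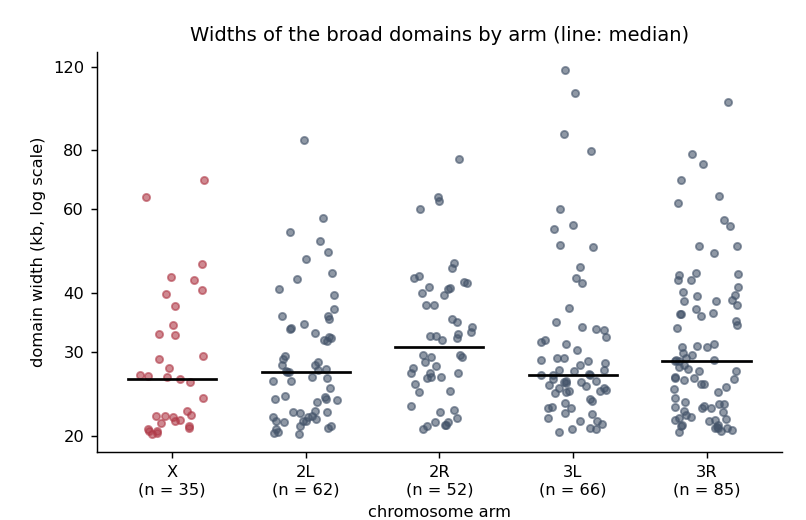
Width of each of the 300 broad domains in kb (log axis) by chromosome arm; each point is 1 domain, points are spread sideways for legibility, and lines are medians. Medians run from 26302 bases on X to 30726 bases on 2R, and the 3 domains over 100 kb lie on 3L and 3R.

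The 10 widest domains were each covered to at least 91.8% in both lists, but none of them was 1 piece in both. The map of 15 domains shows the clusters of each replicate list inside the 10 widest. The first, on 3L from 17923726 to 18041689 (118 kb, authors' score 1.53), held in replicate 1 a cluster of 104.6 kb preceded by clusters of 6.5 and 6.2 kb, with gaps of 145 and 102 bases. In replicate 2 it held a cluster of 100.9 kb preceded by clusters of 6.7, 2.3 and 7.4 kb, with gaps of 182, 171 and 218 bases. In both libraries the breaks lay near the left end. The first gap of each overlapped that of the other, and the later gaps did not. The second, on 3L from 22295523 to 22401372 (106 kb), was 1 cluster of 105.7 kb in replicate 2, and in replicate 1 a cluster of 100.2 kb with 1 of 5.2 kb, 412 bases apart.

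The third, on 3R from 17959614 to 18060738 (101 kb), was broken in different ways. In replicate 1 it consisted of clusters of 26.4, 21.0, 10.8, 27.8 and 13.2 kb with gaps of 24, 51, 12 and 257 bases. In replicate 2 it was a cluster of 83.4 kb, followed after 2939 bases by 1 of 12.3 kb and after 877 bases by 1 of 1.5 kb. A cluster of replicate 2 ran across the 3 shortest breaks of replicate 1, and the remaining break overlapped the longer break of replicate 2. The widest domain of X, from 12097580 to 12166832 (69.3 kb), held 5 clusters in replicate 1 and 4 in replicate 2, and was covered to 98.0% and 95.9%. Of the remaining 6 of the 10 widest, 3 lay on 3R or 2L and were covered to between 97.8% and 99.9% in either list. The pair on 3L, of 86.5 and 79.8 kb, was covered to 91.8% and 92.5% in replicate 1 and to 97.8% and 97.5% in replicate 2. These 2 domains held 8 and 7 clusters in replicate 1, with gaps of up to 2853 and 2141 bases. In replicate 2 each held 5 clusters, with gaps of up to 669 and 743 bases. The widest domain of 2R, of 76.7 kb, was 1 cluster in replicate 2 and 2 clusters in replicate 1.

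**Figure D2:**
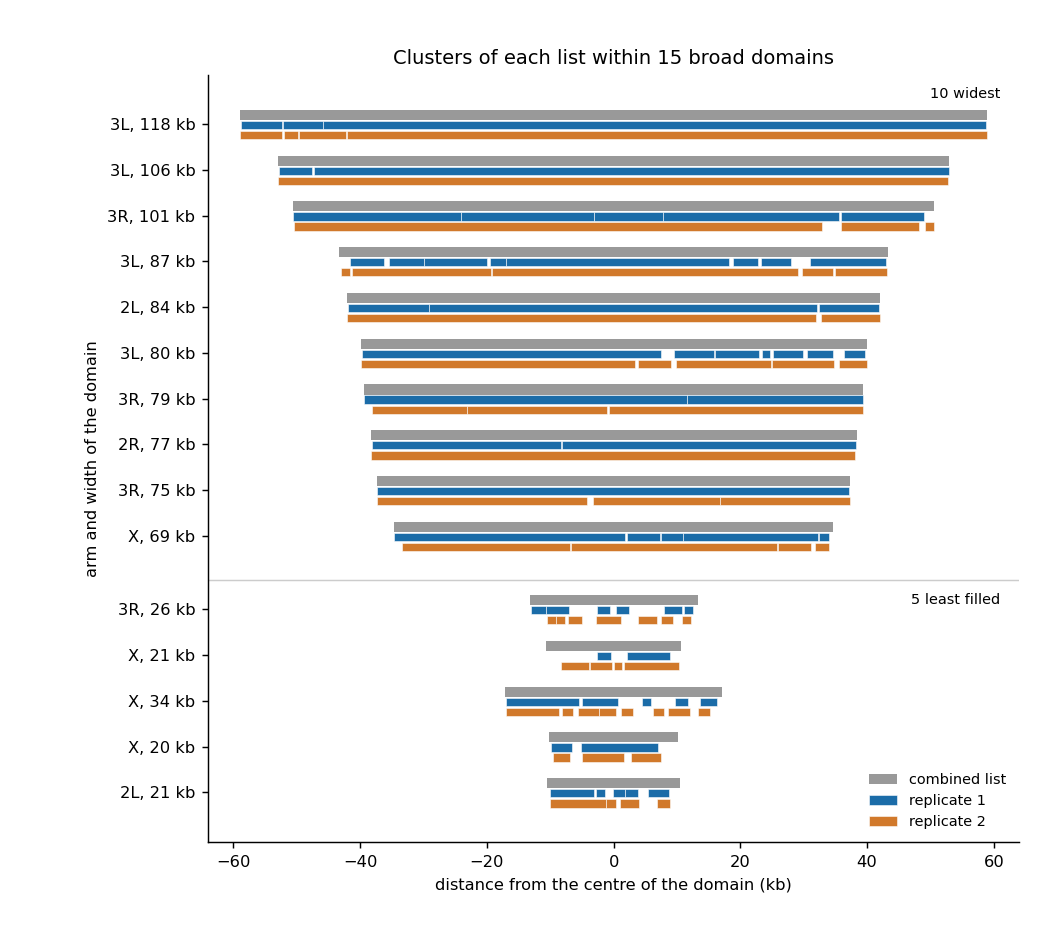
Clusters of the combined list (grey), replicate 1 (blue) and replicate 2 (orange) along the 10 widest domains and the 5 with the lowest mean filling, drawn by distance from the domain centre in kb; labels give arm and width. Replicate clusters run through nearly all of the 118 kb domain, whereas the least filled domain, of 26 kb on 3R, is a row of clusters of at most 4.0 kb.

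Replicate clusters filled nearly all of most domains. Of the domain bases, replicate 1 covered 93.7% and replicate 2 covered 94.7%. The mean was 94.2% ± 0.75 (SD, n = 2). Both lists covered 90.6% of the bases, 1 list covered 7.26% and neither covered 2.16%. The combined list was made from the same libraries, so filling is not independent of the width that chose the domains, and it is described without a test. All 300 domains were overlapped by a cluster in both lists, as were 65.7% of all combined clusters. Filling to at least 90% in both lists was found for 213 domains, or 71%, against 30.8% of all combined clusters. In clusters of 10 to 20 kb, the neighbouring class of width, the lists covered 90.3% ± 0.53 of the bases (SD, n = 2), and in all clusters of 20 kb or less 78.0% ± 1.26.

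Per domain, filling had a median of 96.0% in replicate 1 and 97.0% in replicate 2, and its lower quartile was 90.4% and 92.1%. Each list filled 1 domain to 100%. Replicate clusters usually began a little inside the combined border. The outermost replicate cluster lay a median of 139 bases inside the border in replicate 1 and 134 bases in replicate 2, and 76.7% and 77.7% of the 600 borders were matched within 500 bases. Of the uncovered domain bases, 43.5% in replicate 1 and 41.5% in replicate 2 lay at these borders, and the rest in gaps inside the domain.

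The replicates filled a domain to a like degree in most cases. The difference, replicate 2 minus replicate 1, had a median of 0.29 percentage points and an SD over domains of 6.58 points. It was within 5 points for 224 domains and beyond 10 points for 29, of which 20 were fuller in replicate 2. The largest was found on X from 5098659 to 5119899, where replicate 1 covered 42.6% with clusters of 2.2 and 6.8 kb and replicate 2 covered 85.1% with 4 clusters. On 2L from 4068149 to 4090593, replicate 1 held 1 cluster of 13.4 kb (59.9%), while replicate 2 held 1 of 14.6 kb and a further 1 of 7.5 kb (98.3%). The opposite was seen on X from 20769022 to 20795323, where replicate 1 covered 94.9% and replicate 2 covered 61.7%. The next largest were on 3L from 940526 to 960923 (66.1% in replicate 1 and 87.7% in replicate 2) and on 3R from 6090297 to 6112005 (78.1% and 96.8%). The scores of these 5 domains, from 0.67 to 0.83, lay below the lower quartile of the domains (0.859).

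**Figure D3:**
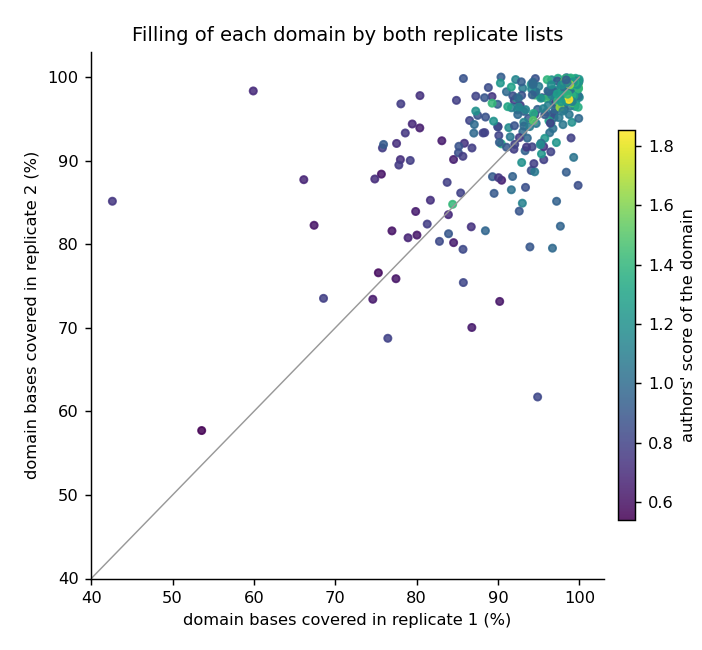
Share of each domain's bases covered by clusters of replicate 1 (x axis) and replicate 2 (y axis) in percent, coloured by the authors' score; each point is 1 of 300 domains and the line marks equal filling. Most points crowd above 90% on both axes, and the 3 domains under 75% in both lists have low scores.

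Poorly filled domains had low scores. The authors' score, which the labels and headers leave undefined, had a median of 1.04 in the domains (0.540 to 1.85), 1.01 in clusters of 10 to 20 kb and 0.583 in all clusters of 20 kb or less. Of the domains, 77 (25.7%) lay in the top 10% of scores of the combined list and 2 lay below its median. High scores were not particular to domains, as the upper quartile was 1.23 in the domains and 1.22 in clusters of 10 to 20 kb. Within the domains, whose widths start at 20 kb by rule, width and score had a Spearman's rho of 0.0093 and a Pearson's r of 0.032 across 300 domains. Score and mean filling ranked together (rho 0.72, r 0.68 across 300 domains). All 3 measures come from the same libraries, so these values are descriptions. In the third of the domains with the lowest scores, up to 0.927, coverage was 86.6% in replicate 1 and 89.7% in replicate 2. In the third with the highest scores, from 1.19, it was 97.8% and 98.0%.

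The lowest mean filling was on 3R from 23640708 to 23667197, covered to 53.6% in replicate 1 by 6 clusters of 1.3 to 3.5 kb and to 57.7% in replicate 2 by 7 clusters of 1.3 to 4.0 kb. Gaps of up to 5509 bases separated them in replicate 1 and of up to 2669 bases in replicate 2. Its score of 0.540 was the lowest of all domains. The others lay on X from 5098659 (above), on X from 581406 to 615571 (68.6% and 73.5%), on X from 14693387 to 14713619 (76.5% and 68.7%) and on 2L from 12222818 to 12243801 (74.6% and 73.4%). At the high end, the domain with the top score of 1.85, on 3R from 20048497 to 20074204, was covered to 98.7% and 97.3%. The second, on X from 11002913 to 11023704 (score 1.67), was a single cluster in both lists, covered to 98.8% and 99.1%. The next were on X from 1765145 to 1794192 (1.64), on 3R from 17842157 to 17863740 (1.56) and on 2L from 4964948 to 4989115 (1.55), and neither list covered any of them to less than 96.4%.

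Most domains were more than 1 cluster in the replicate lists. They held 750 clusters of replicate 1 and 736 of replicate 2, a mean of 2.48 ± 0.033 pieces per domain (SD, n = 2). A single piece was found for 99 domains in each list (33%), and these overlapped in part: 62 were 1 piece in both, 164 were split in both, and 37 were split in replicate 1 alone and 37 in replicate 2 alone. The share in 1 piece, averaged over the lists, was 57.7% when replicate clusters closer than 500 bases were counted as 1 and 72.3% at 1000 bases. Splitting in both lists was found for 54.7% of domains, against 8.91% of all combined clusters, which are mostly narrower than 5 kb. The count of pieces was equal for 117 domains, differed by at most 1 for 250, and differed by 3 or more for 15. Domains of 4 or more pieces numbered 68 in replicate 1 and 59 in replicate 2.

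**Figure D4:**
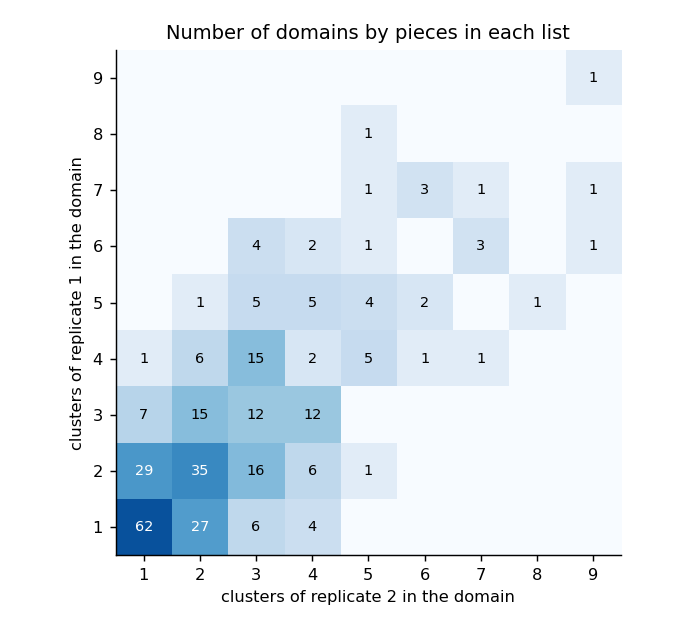
Number of domains by how many clusters of replicate 1 (y axis) and replicate 2 (x axis) they hold; each cell gives a count and darker cells hold more domains. The fullest cell, 62 domains, is 1 piece in both lists, and 1 domain holds 9 pieces in both.

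Wider classes held more pieces per cluster. In replicate 1 the mean was 1.67 for clusters of 10 to 20 kb, 2.26 for domains of 20 to 30 kb, 2.74 at 30 to 40 kb and 3.00 above 40 kb, and in replicate 2 it was 1.70, 2.20, 2.67 and 3.03. Across domains, the summed pieces ranked against score with rho -0.66 (r -0.63) and with width with rho 0.16 (r 0.24; 300 domains each). The range of widths is limited by the rule and that of scores is not, so the coefficients are not compared. Median widths were close, at 27566.5 bases where domains were 1 piece in both lists and 28140 where they were split in both, and the median scores of these groups were 1.23 and 0.898. Gaps per 10 kb of domain numbered 0.934 in replicate 1 and 0.864 in replicate 2 in the third with the lowest scores, and 0.196 in both lists in the third with the highest. By width, the domains over 40 kb had 0.362 and 0.368 gaps per 10 kb, those of 20 to 30 kb had 0.517 and 0.490, and clusters of 10 to 20 kb had 0.489 and 0.512. Clusters of 5 to 10 kb had 0.343 and 0.336, so the classes did not follow the order of width.

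The 5 widest domains that were 1 piece in both lists began with 1 of 63.7 kb on 2R. A domain on 3R (25877705 to 25939736) spanned 62.0 kb and a second on 3R (14872243 to 14922540) spanned 50.3 kb. The others spanned 50.0 kb on 3L (13221806 to 13271853) and 48.9 kb on 2L (14185623 to 14234503). Of the 4 on 3R, 3L and 2L, the lowest coverage was 97.8%, in replicate 2 of the second on 3R. The most divided domain lay on 3R from 1735281 to 1785481 (50.2 kb), with 9 clusters in each list and coverage of 81.7% in replicate 1 and 85.3% in replicate 2. On X from 19251758 to 19315344 (63.6 kb) there were 7 and 9 clusters, covering 90.2% and 92.2%. On 3R from 2387642 to 2418385 (30.7 kb) there were 6 and 9, covering 75.3% and 76.6%. A domain of 60.2 kb on 2R held 7 in each list, covering 81.3% and 82.4%, and the 86.5 kb domain on 3L held 8 and 5.

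The gaps that split the domains were short, and a minority of them fell at the same place in both lists. Replicate 1 had 450 gaps inside domains with a median of 455 bases, and replicate 2 had 436 with a median of 441.5 bases. Over the whole lists, neighbouring clusters were a median of 2833 bases apart in replicate 1 and 2672.5 in replicate 2. Inner gaps are only those that a combined cluster runs across, and the combined list was made from the same libraries. Their short lengths are thus not independent of how the domains were chosen. Gaps under 200 bases made up 28.2% and 31.2% of the inner gaps, and gaps over 1000 bases numbered 118 and 107. Of the inner gaps of replicate 1, 177 (39.3%) overlapped one of replicate 2, and of those of replicate 2, 184 (42.2%) overlapped one of replicate 1. Long gaps were shared more often than short ones: 67.8% of those over 1000 bases and 18.9% of those under 200 bases in replicate 1, and 64.5% and 25% in replicate 2. Length itself bears on overlap, and its part in this order was not tested. Of the 164 domains split in both lists, 114 had at least 1 gap at the same place in both and 50 had none.

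Many domains held no replicate cluster of their own class of width. In all, 130 domains contained a cluster over 20 kb in both replicate lists, 61 did so in 1 list, and 109 in neither. For these 109 the median filling was 90.2% and the median width 23926 bases, the widest being 57558 bases. Replicate clusters usually began inside the border, so a domain just over 20 kb can lack such a cluster without being split. The domain on X from 9230020, of 20139 bases, was 1 cluster of 19.2 kb in replicate 1 and of 19.4 kb in replicate 2. Conversely, of the clusters over 20 kb, 166 of 167 in replicate 1 and all 169 in replicate 2 overlapped a domain. The exception, a cluster of 21935 bases on 2R, met combined clusters of 20000 and 13040 bases that were 515 bases apart.

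Domains were sparser on X than on the autosomal arms. X held 35 domains, or 1.56 per Mb, and the 4 autosomal arms held 265, or 2.74 per Mb. They were 2.47% of the 1418 clusters of X (95% Wilson interval 1.78 to 3.41) and 4.89% of the 5415 autosomal clusters (interval 4.35 to 5.50). X minus the autosomal arms was -1.18 domains per Mb (interval -1.70 to -0.502). These intervals hold counting error alone and treat neighbouring clusters as independent, which they need not be. X took 11.7% of the domains with 18.8% of the sequence. Of the bases of X, 4.65% lay in domains, against 9.00% of the autosomal bases. Among the autosomal arms the rate ran from 2.46 per Mb on 2R to 3.05 on 3R, with 2.69 on both 2L and 3L, so X lay below each of them.

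The domains of X were also the more divided. Of its 35 domains, 2 were 1 piece in both lists (interval 1.58% to 18.6%), against 60 of 265 on the autosomal arms (interval 18.0% to 28.1%), and these intervals overlapped. Gaps per 10 kb of domain were 0.623 in replicate 1 and 0.776 in replicate 2 on X, and 0.443 and 0.408 on the autosomal arms. Filling to at least 90% in both lists was found for 17 X domains (48.6%, interval 33.0 to 64.4) and 196 autosomal domains (74.0%, interval 68.4 to 78.9). No cluster over 20 kb was present in either list for 23 X domains (65.7%, interval 49.2 to 79.2) and 86 autosomal domains (32.5%, interval 27.1 to 38.3). Set against the 12 and 10 clusters over 20 kb that the replicate lists held on X, its domains numbered 2.92 and 3.50 for each. On the autosomal arms, with 155 and 159 such clusters, they numbered 1.71 and 1.67. The values for clusters over 20 kb do not measure splitting alone, since an undivided domain just over 20 kb can lack such a cluster. Median widths were 26302 bases on X and 27760 on the autosomal arms, and median scores 1.01 and 1.04. Input signal and read depth on X were not analysed here, and their part in these differences was not tested.

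Along the arms, domains were found in each of 5 equal stretches of every arm. Counted from the centromere end outward over the 5 arms, they numbered 46, 56, 58, 63 and 77. No single arm rose at every step. Only 2L never fell, with 7, 7, 16, 16 and 16. The numbers were 5, 4, 8, 7 and 11 on X and 9, 13, 14, 7 and 9 on 2R. On 3L they were 8, 15, 9, 13 and 21, and on 3R 17, 17, 11, 20 and 20. Of all combined clusters in the same stretch, the domains of the 5 arms made up 3.86%, 3.83%, 4.18%, 4.38% and 5.69%. In the 2 Mb at the centromere end of the arms lay 9 domains among 347 clusters, against 300 among 6833 over the whole arms. Of these 9 domains, 7 were on 3R, 1 on 2R and 1 on X, while 2L and 3L had none there. The 2 Mb at the other end held 33, between 2 on 2R and 9 on 2L. All clusters at that end were not counted here, so the 33 domains have no share beside them and the 2 ends are not compared. Combined clusters covered 28.4% of the 5 stretches nearest the centromere end and 37.7% of the outermost ones.

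Domains occurred singly or in close pairs, and no 3 lay within 10 kb of each other. The gap from 1 domain to the next on an arm had a median of 213 kb, with an interquartile range of 60.5 to 471 kb over 295 gaps, and a median of 15 narrower clusters lay in it. It was under 100 kb for 94 gaps, under 10 kb for 29 and under 1 kb for 11. The 29 gaps under 10 kb joined 58 domains into 29 pairs, spanning between 44.1 and 114.7 kb. The longest pair, on 3R from 5699980 to 5814667, put domains of 74.7 and 37.8 kb 2224 bases apart, and clusters of the combined list covered 98.1% of it. The closest pair, on 3R from 21258904 to 21298583 and from 21298682 to 21319470, was 98 bases apart, with scores of 0.80 and 1.35. The next, on 3L from 518074 to 543336 and from 543445 to 574661, was 108 bases apart, with scores of 1.22 and 1.39. A pair on 2R was 125 bases apart, with scores of 0.75 and 0.67. Replicate clusters seldom ran across these narrow breaks: in 10 of the 11 pairs under 1 kb, no cluster of either replicate ran across, and in the other a cluster of replicate 1 did. The breaks are those of the combined list, made from the same libraries, so the replicate lists are not independent evidence of them.

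The number of domain starts differed between windows of 1 Mb. Of 117 full windows, 12 held no domain start, 20 held 1, and 15 held 5 or more, around a mean of 2.52. The variance was 1.16 times the mean. Independent counts of equal rate would have a variance near the mean, and whether density differed between windows was not tested. The fullest windows, each with 8 starts, were 1 on 2R and 1 at 5 to 6 Mb on 3R. On 3R these 8 domains held 264 kb and were covered to between 90.3% and 99.7% in either list. They included 2 rows of 3 domains: those from 5244792, 5293437 and 5329838, with gaps of 19729 and 12910 bases, and those from 5699980, 5776906 and 5842943, with gaps of 2224 and 28275 bases. At the other extreme, the longest stretch with no domain ran over 2.27 Mb on X from 16480746 to 18751662. It was not unmarked: 148 clusters of up to 17976 bases lay in it, covering 22.2% in replicate 1 and 22.8% in replicate 2. The second, of 2.14 Mb to the centromere end of 3L from 22401373, held 47 clusters over 4.36% and 4.61%, and began at the border of the 106 kb domain.

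The domains farthest from any other lay on X from 16456779 to 16480745 (1702 kb to the nearest), on 2L from 16602122 to 16633741 (1613 kb), on X from 9230020 to 9250158 (1108 kb), on 3L from 13221806 to 13271853 (995 kb) and on X from 13677952 to 13699404 (915 kb). X held 3 of these 5 and 11.7% of all domains. Its domains were sparser, with a median gap to the next of 406 kb, against 210 kb on the autosomal arms. The surroundings of these 5 domains differed. Clusters covered 66.0% in replicate 1 and 63.6% in replicate 2 of the 20 kb on either side of the first, 31.1% and 30.5% for the domain on 2L, and 14.0% and 23.8% for the domain from 9230020. Around the domain on 3L the share was 0% in both lists, and around the last it was 60.3% and 63.0%.

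Domains lay in well marked surroundings. Clusters of replicate 1 covered 40.9% and those of replicate 2 covered 41.8% of the 20 kb on each side of a domain, a mean of 41.3% ± 0.63 (SD, n = 2). Around clusters of 10 to 20 kb the values were 39.3% and 40.2%, around all clusters of 20 kb or less 32.3% and 33.3%, and the large arms as a whole were covered to 27.9% and 28.4%. The flanks were thus close to those of the next narrower class, and no test was made between them. Within the domains the flanks were more covered at 20 to 30 kb of width (43.7% and 44.4%) than above 40 kb (37.0% and 37.9%). The plot of coverage around the borders shows a fall from 57.6% and 59.3% in the last 500 bases inside to 9.36% and 8.38% in the first 500 bases outside, and the borders of the combined list, made from the same libraries, set where this fall lies. Coverage was 43.9% and 44.7% at about 5 kb outside and 38.0% and 39.7% at about 20 kb.

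**Figure D5:**
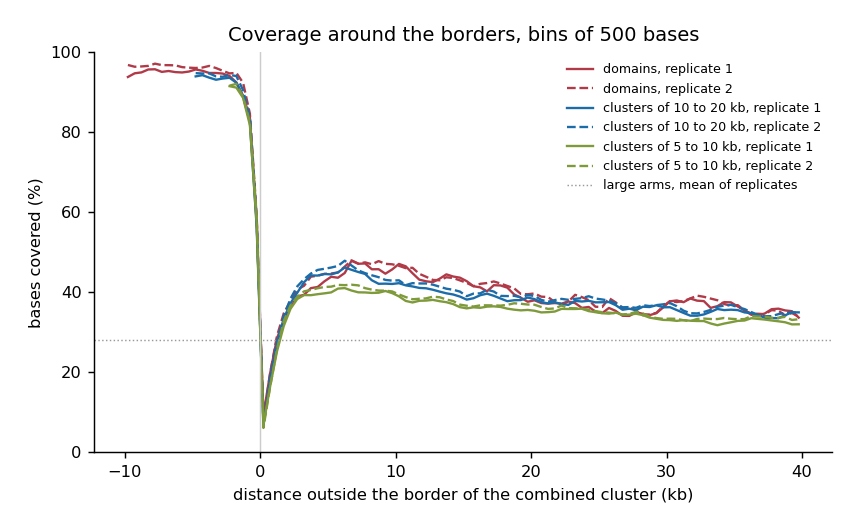
Share of bases covered by replicate clusters (percent) against distance outside the border of combined clusters (kb, negative inside, bins of 500 bases), for the 300 domains, 734 clusters of 10 to 20 kb and clusters of 5 to 10 kb; the dotted line is the covered share of the large arms. The lines of the domains and of the 10 to 20 kb clusters lie below the dotted line in the first 1 kb outside the border and above it from 1.75 kb outward, as far as drawn.

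The nearest cluster was often very close. For 185 domains (61.7%) a neighbour of the combined list lay within 1 kb, as it did for 53.8% of all combined clusters, and 39 domains had neighbours within 1 kb on both sides. The gap to the nearest cluster had a median of 630 bases for domains, 698.5 for clusters of 10 to 20 kb and 866 for all clusters of 20 kb or less. On the farther side the medians were 5.95, 5.68 and 6.05 kb in the same order. Clusters next to a domain were wider than those next to a narrower cluster, with medians of 4578 and 3443.5 bases, and 24.8% against 14.7% of them exceeded 10 kb. Some of these neighbours were domains themselves, as 26 consecutive pairs of domains had no cluster between them. Widths next to clusters of 10 to 20 kb were not measured, so wider neighbours are not shown to be particular to domains.

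A few domains stood alone. In 6 of the 300 no combined cluster lay within 20 kb on either side. The same held for 6 of the 734 clusters of 10 to 20 kb and for 176 of all 6533 clusters of 20 kb or less. Standing alone was therefore not particular to domains. The clearest was the 50.0 kb domain on 3L from 13221806, a single cluster of 49.9 kb in replicate 1 and 49.7 kb in replicate 2, with no cluster for 109 kb on its left and 107 kb on its right. A domain of 44.0 kb on 2L, from 11581772 to 11625733, had no combined cluster for 54.8 kb on its left and 172.6 kb on its right. It held 3 clusters in replicate 1 and 4 in replicate 2, covering 93.8% and 95.1%. The domain on 2L was named after its values had been seen.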

How the data were processed

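The data are 3 lists of regions of significant enrichment on FlyBase release 5, per the file headers. The replicate set has 1 list and each ChIP library has its own. The submitters' processing notes list Bowtie 0.12.7 but no role for it. How regions were called, at which threshold, and how replicates were merged is stated in no label or header used here. For every region the authors deposited a score beside its start and end. The lists hold no read counts, so depth is unknown. Wilson intervals on shares of clusters or of domains cover counting error only.

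Clusters were used as deposited. A domain is a combined cluster over 20 kb on a large arm; a piece is a replicate cluster that overlaps it by at least 1 base. Filling is the covered share of bases. Flanks are the 20 kb outside each border. The centromere side follows the usual orientation of the arms. With 2 replicates and regions chosen by width, values are described and not tested. The members, lists and comparisons were chosen with earlier results of these data known. Regions named are the 10 widest, the widest per arm, the 5 highest in score, the 5 least filled, the 5 with the largest difference in filling, the 5 most divided, the 5 widest in 1 piece, the 3 closest pairs, the 5 most distant, 3 on either side of the limit, the 2 fullest windows and the longest stretch without a domain. Positions on 2R are not reported here. Alternatives are listed in the closing section. The interval counting was checked on simulated data. Computation was in Python 3.11.15 with pandas 2.3.3 and numpy 2.4.6, intervals came from scipy 1.17.1 and plots from matplotlib 3.10.9.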

Additional observations from a re-analysis of the deposited data

How the results depend on the processing

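The number of domains depends on the width limit and on how clusters are joined: 300 became 535 above 15 kb, 117 above 30 kb and 510 when clusters closer than 1000 bases were joined first, and was 298 when clusters below their list's median score were dropped. The lower rate on X kept its direction in each of the 5 alternatives tried, with differences of -0.61 to -1.36 domains per Mb against -1.18. Coverage of domain bases, 94.2%, was 93.4% above 15 kb, 95% above 30 kb, 90.4% with joined clusters and 80.7% without the clusters below the median score, a filter that by construction takes low clusters out of the replicate lists. The share in 1 piece, 33%, was 37.4%, 29.9%, 41.1% and 55.2% under the same 4 settings in that order, and did not move when a piece needed 1000 bases inside the domain. When replicate clusters closer than 200, 500 or 1000 bases were counted as 1, settings chosen after the data had been seen, it was 46.5%, 57.7% and 72.3%. Coverage of the 20 kb flanks, 41.3%, was 40.6%, 37.1%, 31.5% and 30.3% under the 4 settings, 33.8% for flanks of 5 kb and 34.3% for flanks of 100 kb. With each replicate left out in turn, coverage of domains ran from 93.7% to 94.7%, the share in 1 piece was 33% both times, and flank coverage ran from 40.9% to 41.8%. No paired analysis was possible because no list of the input libraries was analysed here and no result comes from a test. Without depths, short gaps cannot be weighed against counting error.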
